A study of Homo sapiens with 6 samples.

Results

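LGR5 and 9 further genes of Wnt feedback and of the intestinal crypt stem cell (LGR4, RNF43, ZNRF3, AXIN2, NKD1, LEF1, ASCL2, EPHB2 and SMOC2) were followed in LoVo cells after knockdown of the splicing factor SRSF11. These 10 genes were picked by name from the 58735 genes of the count table. LGR5 was selected on its rise in this same comparison, so its difference is given as a description without a test, and it ranked 55 among the protein-coding genes when the tested ones were ordered from the largest rise down. The other 9 were selected on their known function, with results of these libraries already known. LoVo is an established human colorectal cancer line with truncated APC. Its cells had been transfected with a negative control siRNA (si-NC, 3 libraries) or an SRSF11 siRNA (si-SRSF11, 3 libraries), and polyadenylated RNA of the whole culture was sequenced. The study describes the 3 pairs as independent RNA samples without naming separate cultures, so the p-values measure the spread between these libraries, which may be technical. All cells were of this one line, no time after transfection is given in the sources used here, and the sources do not say which of the study's SRSF11 siRNAs was sequenced.

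Wnt ligands bind Frizzled and LRP receptors at the cell surface and protect beta-catenin from a destruction complex built on APC and axin. Stabilized beta-catenin then joins TCF/LEF factors in the nucleus and switches on target genes, several of which feed back on the pathway. At the base of the intestinal crypt this pathway maintains the LGR5-positive stem cells, and in most colorectal cancers it is active through loss of APC.

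The targeted gene was checked first. SRSF11 had 1271, 1281 and 1363 counts in the si-NC libraries and 789, 789 and 807 in the si-SRSF11 libraries, and the groups did not overlap. Its log2 fold change, always given as si-SRSF11 relative to si-NC, was -0.80 (SE 0.054, adjusted p = 6.1e-10 by edgeR's quasi-likelihood test). Library totals were 14369525 to 15514404 counts in si-NC and 15688702 to 16685719 in si-SRSF11. Mitochondrially encoded genes took 7.003% to 7.251% of the counts in si-NC and 8.29% to 8.51% in si-SRSF11. Both measures separated the groups, and their part in the results was not tested. Of 15801 genes tested, 24.6% differed at an adjusted p under 0.05, with 13.2% higher and 11.4% lower in si-SRSF11. Under scaling by library size alone the higher calls fell from 53.6% to 41.0% of all calls. Epithelial genes, among them EPCAM and keratins 8, 18 and 19, summed to between 6131 and 6509 CPM (counts scaled to a common library size) in si-NC and between 6146 and 6588 in si-SRSF11. Of 12 markers of leukocytes, fibroblasts and endothelium, 3 passed the filter on low counts and none was called by edgeR. The list summed to 13.8 to 15.6 CPM in si-NC and 11.8 to 15.4 in si-SRSF11, most of it COL1A1, while PTPRC, DCN and LUM were at 0 in each library.

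LGR5, the R-spondin receptor that marks crypt base stem cells, was higher in each si-SRSF11 library. It had 73, 85 and 96 counts in si-NC against 201, 186 and 193 in si-SRSF11, which are 5.02, 5.58 and 6.15 CPM against 12.8, 11.4 and 11.8 CPM. Levels in CPM were scaled by TMM, the composition correction of edgeR. The means were 5.59 ± 0.563 and 12.02 ± 0.725 CPM (SD, n = 3 each), a 2.15-fold difference (log2 fold change 1.10, SE 0.13). The lowest si-SRSF11 library was well above the highest si-NC library. In RNA from a whole culture, more LGR5-expressing cells and more LGR5 RNA per cell cannot be told apart, and this holds for each gene below.

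**Figure D1:**
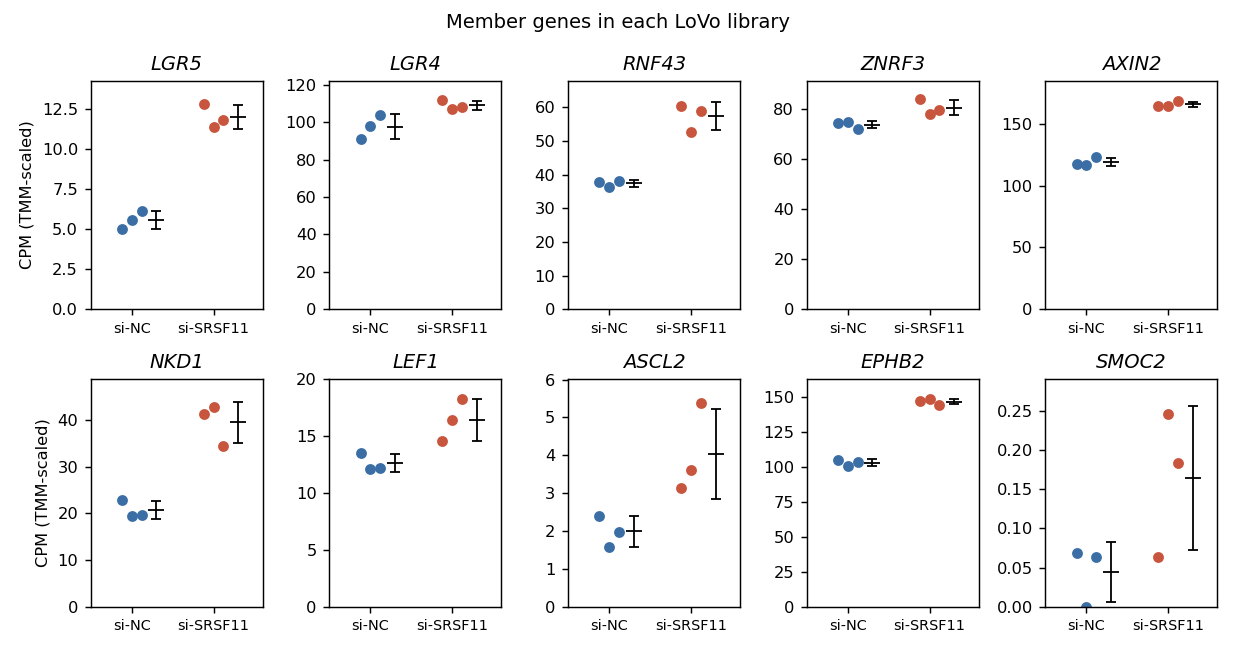
Level of each of the 10 genes in each library, in TMM-scaled CPM on a linear axis that starts at 0 in each panel. Blue points are the 3 si-NC and red points the 3 si-SRSF11 libraries, and the black bars give mean and SD. In each panel but that of SMOC2, which rests on 0 to 4 counts, the si-SRSF11 points lie above all si-NC points.

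The picture shared by these genes was a rise of uneven size. Of the 9 genes that passed the filter on low counts (10 or more in 3 or more libraries), 8 were called higher and 0 lower, against 13.2% of all tested genes called higher. Each of the 9 had at least 24 counts in each library, so none owed its passage to the group in which it was high. Leaving LGR5 aside, 7 of 8 were called. In all 9, and so in each of the 8 without LGR5, the 3 si-SRSF11 libraries lay above the 3 si-NC libraries. This arrangement was found in 20.0% of all tested genes. Their median log2 fold change was 0.51, or 0.49 without LGR5, beside 0.00 over all tested genes. Only LGR5 and ASCL2 also passed a log2 fold change of 1, the second threshold of the study, which 0.544% of all tested genes passed upwards. LGR5 was chosen for its large rise, and without it 1 of 8 passed. Because the set was drawn up with this contrast known, these shares are descriptions of the chosen genes. An exact permutation test of a single gene cannot go below p = 0.10 with 3 libraries against 3.

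LGR4, the broadly expressed paralog of LGR5 and likewise a receptor of R-spondins, rose far less. Its levels were 91.1, 98.1 and 104 CPM in si-NC and 112, 107 and 108 CPM in si-SRSF11. The groups did not overlap, but the highest si-NC library came close to the lowest si-SRSF11 library. The log2 fold change was 0.16 (SE 0.053, adjusted p = 0.034 by edgeR's quasi-likelihood test). This call was lost under library size scaling (0.12, adjusted p = 0.097), with DESeq2 (0.15, adjusted p = 0.078), and without si-NC replicate 1 (0.11, adjusted p = 0.23), si-NC replicate 2 (adjusted p = 0.091), si-SRSF11 replicate 1 (adjusted p = 0.093) or si-SRSF11 replicate 2 (adjusted p = 0.054). Per kilobase of annotated exon, LGR4 exceeded LGR5 by 15.0, 14.5 and 14.0 times in the si-NC libraries and by 7.24, 7.77 and 7.57 times in the si-SRSF11 libraries. By this measure LGR4 thus remained the more abundant RNA in each library while the ratio became smaller. Receptor protein was not measured.

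RNF43 and ZNRF3 are membrane ubiquitin ligases that remove Frizzled receptors from the surface, are themselves induced by Wnt, and are held in check by R-spondins through LGR4 and LGR5. RNF43 rose from 37.9, 36.3 and 38.3 CPM to 60.6, 52.8 and 59.0 CPM. The difference of 53.2% (log2 fold change 0.62, SE 0.066, adjusted p = 4.8e-07 by edgeR's quasi-likelihood test) was several times the spread within either group. ZNRF3 had 74.7, 74.8 and 72.2 CPM in si-NC and 83.9, 78.1 and 79.5 CPM in si-SRSF11. Here too the groups did not overlap, but the difference was small and was not called (log2 fold change 0.12, 95% interval 0.02 to 0.23 from the SE, adjusted p = 0.092 by edgeR). The ratio of ZNRF3 to RNF43 per kilobase was 2.12, 2.22 and 2.03 in si-NC and 1.49, 1.59 and 1.45 in si-SRSF11. By these levels per length, the gene with the lower level had the larger fold change in both receptor and ligase pairs. RNF43 shares 73.9% of its exon bases with other annotated genes, and how reads in them were counted is not given. Its level per length, and so its order against ZNRF3, is uncertain.

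AXIN2 and NKD1 act inside the cell as negative feedback on Wnt signalling. AXIN2, a scaffold of the destruction complex whose transcript is a standard readout of beta-catenin activity, had 117, 117 and 123 CPM in si-NC and 164, 165 and 168 CPM in si-SRSF11. The gap between the groups was many times the SD within either (log2 fold change 0.48, SE 0.047, adjusted p = 1.5e-07 by edgeR's quasi-likelihood test). NKD1, which binds Dishevelled, had 22.9, 19.5 and 19.6 CPM in si-NC and 41.3, 42.9 and 34.5 CPM in si-SRSF11. It had the largest difference of the genes outside LGR5 and ASCL2 (log2 fold change 0.94, SE 0.089, adjusted p = 9.7e-08 by edgeR's quasi-likelihood test). Both calls held under each alternative tried.

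The transcription factors of the set differed in level and in precision. LEF1, a partner of beta-catenin on DNA, had 13.6, 12.1 and 12.2 CPM in si-NC and 14.6, 16.4 and 18.2 CPM in si-SRSF11. The groups did not overlap, though the lowest si-SRSF11 library was near the highest si-NC library, and the log2 fold change was 0.38 (SE 0.11, adjusted p = 0.012 by edgeR). The call was lost without si-NC replicate 2 (0.35, adjusted p = 0.052) and without si-SRSF11 replicate 3 (0.29, adjusted p = 0.063). ASCL2, a basic helix-loop-helix factor of the crypt stem cell, rested on 35, 24 and 31 counts in si-NC and 49, 59 and 88 in si-SRSF11. Its levels were 1.99 ± 0.416 and 4.05 ± 1.19 CPM (SD, n = 3 each), and 1 si-SRSF11 library was far above the other two. The log2 fold change of 1.03 (SE 0.25, adjusted p = 0.0037 by edgeR) ranged from 0.76 to 1.18 when single libraries were left out, with adjusted p at most 0.037. The SE was the largest of the 9, at the lowest counts.

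EPHB2, the receptor tyrosine kinase that positions cells along the crypt axis, had 105, 100 and 104 CPM in si-NC and 147, 148 and 145 CPM in si-SRSF11. The libraries of each group were within a few percent of each other, and EPHB2 had the smallest adjusted p of the set (log2 fold change 0.51, SE 0.047, adjusted p = 5.2e-08 by edgeR's quasi-likelihood test). SMOC2, a secreted matricellular protein enriched in crypt base cells, had 1, 0 and 1 counts in si-NC and 1, 4 and 3 in si-SRSF11. These are close to the limit of 3 counts that an observed 0 allows, equal to 0.184 to 0.206 CPM, so SMOC2 was not tested and no fold is given.

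**Figure D2:**
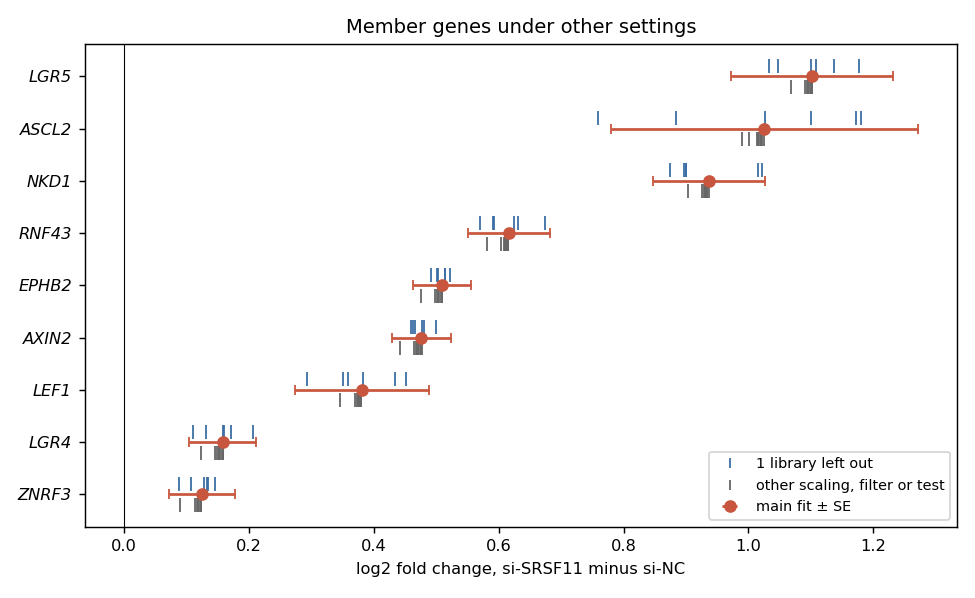
Log2 fold change of the 9 tested genes, si-SRSF11 relative to si-NC. Red points and bars give the estimate and its SE, blue ticks the fits with 1 library left out, and grey ticks other scalings, filters and tests. Each tick lies above 0, with LGR4 and ZNRF3 nearest to it and ASCL2 spread most widely, from 0.76 to 1.18.

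Levels were compared between genes per kilobase of annotated exon. This length takes in all annotated exons, whichever transcripts the cells used, and bases shared with other genes (73.9% in RNF43, 25.2% in AXIN2). The order below depends on it. In si-NC, AXIN2 was highest with 22.8 ± 0.636 CPM per kilobase (SD, n = 3), followed by LGR4 with 15.4 ± 1.03, ZNRF3 with 10.6 ± 0.215, EPHB2 with 8.23 ± 0.188, RNF43 with 4.99 ± 0.143 and LEF1 with 2.36 ± 0.151. NKD1 with 1.19 ± 0.111, ASCL2 with 1.07 ± 0.225 and LGR5 with 1.06 ± 0.107 formed a lower tier within which neighbouring ranges overlapped, and SMOC2 was last. In si-SRSF11 the order from the top was AXIN2 with 31.7 ± 0.433 and LGR4 with 17.2 ± 0.416, then EPHB2 with 11.7 ± 0.155 and ZNRF3 with 11.6 ± 0.435, whose ranges overlapped. RNF43 with 7.65 ± 0.551 and LEF1 with 3.06 ± 0.338 came next. LGR5 with 2.29 ± 0.138, NKD1 with 2.27 ± 0.254 and ASCL2 with 2.18 ± 0.641 again formed a tier of overlapping ranges. The 3 genes of this lower tier were also those with the largest log2 fold changes. NKD1 owes its place in the tier to its annotated length of 17425 bases. In CPM without regard to length it was above LEF1 in si-NC, with 20.7 against 12.6. Summed over the 10 genes, the level was 465 to 481 CPM in si-NC and 626 to 640 CPM in si-SRSF11.

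Position on the genome bears on how exactly reads were assigned, since the kit named in the labels is not stated to keep strand. Coordinates are those of GRCh38 in the count table. LGR5 (ENSG00000139292, chr12:71439770-71586310, plus strand) overlaps the span of TSPAN8 on the opposite strand, with no exon base in common, and shares 3.96% of its exon bases with an antisense gene of at most 1 count. TSPAN8, a tetraspanin, rose as well, from 788, 906 and 906 counts to 1108, 1153 and 1191 (log2 fold change 0.32, SE 0.056, adjusted p = 0.00023 by edgeR). RNF43 (ENSG00000108375, chr17:58352500-58417595, minus strand) shares 73.9% of its exon bases with other annotated genes, chiefly the read-through gene AC004687.2 and the antisense TSPOAP1-AS1, and none of these exceeded 11 counts in a library. AXIN2 (ENSG00000168646, chr17:65528563-65561647, minus strand) shares 25.2% with AC004805.1, which had 2 to 6 counts. LEF1 (ENSG00000138795, chr4:108047545-108168956, minus strand) shares 5.20% with LEF1-AS1, which had 1 to 7 counts. How reads in shared exons were divided is not given in the sources used here.

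The remaining genes share almost no exon sequence with a neighbour. LGR4 (ENSG00000205213, chr11:27365961-27472775, minus strand), ZNRF3 (ENSG00000183579, chr22:28883592-29057487, plus strand), ASCL2 (ENSG00000183734, chr11:2268495-2270952, minus strand) and SMOC2 (ENSG00000112562, chr6:168441151-168673445, plus strand) share none. NKD1 (ENSG00000140807, chr16:50548330-50649249, plus strand) and EPHB2 (ENSG00000133216, chr1:22710839-22921500, plus strand) share under 1%. Promoter windows from 250 bases before to 50 after the start were held by RefSeq (GRCh38.p14) for EPHB2, LEF1, SMOC2, LGR4 and RNF43. The TCF/LEF core was searched on both strands as CTTTGAA or CTTTGAT, and further as CTTTGTA or CTTTGTT, and 0 of their 7 windows held it, beside 9.24% of 15277 windows of tested genes. The windows of EPHB2 cover nearly the same bases, and SMOC2 was not a tested gene. With so few windows, a count of 0 cannot be told apart from that share. The search says only that these letters are not in these windows.

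Genes of Wnt ligands and their secretion were called about as often as genes at large. Of 25 ligand and secretion genes 14 were tested, with 3 called higher and 1 lower (median log2 fold change -0.17), that is 28.6% beside 24.6% of all tested genes. WLS, the carrier that brings Wnt proteins to the surface, rose by 0.31 (SE 0.053, adjusted p = 0.00019 by edgeR), and WNT16 by 0.65 (adjusted p = 0.0083). WNT5B rose by 0.30 (adjusted p = 0.029) and WNT4 changed by -0.92 (adjusted p = 0.032), but WNT4 had only 12 to 32 counts. Without si-NC replicate 3 the list kept 2 calls. The calls of WNT5B and WNT4 were each lost without that library and without at least 2 others. The R-spondins, ligands of LGR4 and LGR5, were at or near 0. RSPO1 and RSPO3 had 0 counts in each library, which allows up to 0.206 CPM, RSPO2 had 1 count in 1 library, and RSPO4 had 4, 5 and 0 counts in si-NC and 8, 6 and 8 in si-SRSF11.

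Of 17 other receptor genes 13 were tested, with 3 called higher and 1 lower (median 0.13). This is 30.8%, near the 24.6% of all tested genes, and the split turned to 1 higher and 2 lower under library size scaling and without the filter on low counts. FZD6, a Frizzled receptor, fell from 65.8 ± 1.35 to 50.8 ± 1.03 CPM (SD, n = 3 each; log2 fold change -0.37, adjusted p = 3.7e-05 by edgeR). The co-receptor LRP6 (0.24, adjusted p = 0.012), the pseudokinase PTK7 (0.14, adjusted p = 0.032) and LGR6, the paralog of LGR4 and LGR5 (0.34, adjusted p = 0.048), were called higher. PTK7 lost its call under library size scaling and without the filter. LGR6 had 132, 122 and 154 counts in si-NC and 196, 166 and 188 in si-SRSF11, and its call was lost under library size, upper quartile and RLE scaling, with DESeq2 and limma-voom, and without the filter. The calls of LRP6, PTK7 and LGR6 were each lost without si-NC replicate 1 and without at least 2 further libraries. Calls in the list fell from 4 to 1 without si-NC replicate 1, and to 2 without si-NC replicate 3 or si-SRSF11 replicate 2.

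Of 16 secreted or membrane inhibitors 7 were tested, 2 of them called higher and 0 lower (median 0.18), or 28.6% beside 24.6% of all tested genes. APCDD1, a membrane glycoprotein that binds Wnt and LRP proteins and is itself a Wnt target, had 315, 306 and 359 counts in si-NC and 702, 710 and 709 in si-SRSF11. It rose from 21.6 ± 1.46 to 43.9 ± 0.758 CPM (SD, n = 3 each; log2 fold change 1.02, SE 0.073, adjusted p = 1.4e-09 by edgeR), the largest change among called genes of these lists outside the 10. TRABD2A, a protease that inactivates Wnt proteins, rose by 0.18 (adjusted p = 0.017). Its call was lost, leaving 1 call in the list, without si-NC replicate 1, si-NC replicate 2 or si-SRSF11 replicate 1.

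Genes of the relay between receptor and nucleus were described next, in a list that leaves out AXIN2 and NKD1, which were both called higher. Of 18 genes of the cytoplasmic relay and destruction complex 17 were tested, with 0 called higher and 5 lower (median -0.07). Called genes made up 29.4% of those tested, near the 24.6% of all tested genes (13.2% higher and 11.4% lower). DVL1, which encodes a Dishevelled protein, had a log2 fold change of -0.24 (adjusted p = 0.00089 by edgeR), the kinase CSNK1E -0.29 (adjusted p = 0.001), NKD2 -0.23 (adjusted p = 0.005) and the kinase CSNK1A1 -0.17 (adjusted p = 0.01). Without si-SRSF11 replicate 2 the list kept 3 calls, and that of CSNK1A1 was lost. NKD2, the paralog of NKD1, thus fell while NKD1 rose. APC (0.05, 95% interval -0.24 to 0.34), AXIN1 (-0.07, -0.17 to 0.03), GSK3B (0.08, -0.02 to 0.19) and TNKS (-0.06, -0.19 to 0.07) were not called, with adjusted p of 0.84, 0.32, 0.26 and 0.55 by edgeR.

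Of 16 genes of the nuclear complex 15 were tested, with 1 called higher and 3 lower (median -0.03), or 26.7% beside 24.6% of all tested genes. This list leaves out LEF1, which was called higher. TCF7L2, the main TCF factor of the intestinal epithelium, rose from 95.9 ± 0.855 to 111 ± 2.38 CPM (SD, n = 3 each; log2 fold change 0.21, adjusted p = 0.0023 by edgeR). The coactivator BCL9L (-0.25, adjusted p = 0.0023), the corepressor TLE2 (-0.30, adjusted p = 0.0066) and the acetyltransferase CREBBP (-0.18, adjusted p = 0.042) fell. Without si-NC replicate 1 the list kept 2 calls, and those of TLE2 and CREBBP were lost. CREBBP also lost its call without si-NC replicate 2, si-NC replicate 3 or si-SRSF11 replicate 3, and with DESeq2. CTNNB1, which encodes beta-catenin, had 319 ± 10.5 CPM in si-NC and 310 ± 10.4 in si-SRSF11 (SD, n = 3 each) and was not called (-0.04, 95% interval -0.13 to 0.05, adjusted p = 0.59 by edgeR). TCF7 was not called either (-0.10, interval -0.23 to 0.04, adjusted p = 0.34).

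Of 22 other target genes of Wnt signalling 19 were tested, with 10 called higher and 1 lower (median 0.24), beside 13.2% higher and 11.4% lower over all tested genes. This list too was drawn up with earlier results of these data known, so its counts describe the chosen genes only. BMP4, a ligand of the BMP family, rose from 122 ± 3.51 to 178 ± 5.78 CPM (SD, n = 3 each; log2 fold change 0.55, adjusted p = 3e-08 by edgeR). EPHB3, the paralog of EPHB2, rose by 0.46 (adjusted p = 3e-05), ENC1 by 0.33 (adjusted p = 2.3e-05) and MYC by 0.21 (adjusted p = 0.0035). The 1 gene called lower was CCND1, the gene of cyclin D1, which fell from 914 ± 5.32 to 727 ± 35.6 CPM (SD, n = 3 each; log2 fold change -0.33, adjusted p = 1.1e-05 by edgeR). The si-SRSF11 libraries of CCND1 lay below each si-NC library. Another 8 genes of the list were not called. In all, 15 of the 19 tested had a log2 fold change above 0. Besides CCND1, PROX1 (-0.10, adjusted p = 0.65 by edgeR), PPARD (-0.0097, adjusted p = 0.94) and PLAUR (-0.0024, adjusted p = 0.98) were below 0.

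Other genes of the crypt stem cell were described beside those of differentiated cells. Of 20 crypt stem cell genes 16 were tested, with 9 called higher and 0 lower (median 0.19), beside 13.2% higher over all tested genes. The list was likewise drawn up with earlier results known, and its counts describe the chosen genes only. With the replicate block 9 were called higher and 1 lower, and without si-NC replicate 2 the counts were 6 and 1. The ion cotransporter SLC12A2 rose by 0.44 (adjusted p = 1.3e-06 by edgeR), the protease PRSS23 by 0.37 (adjusted p = 3.7e-06), CDCA7 by 0.36 (adjusted p = 1.5e-05) and the vitamin D receptor VDR by 0.34 (adjusted p = 0.00041). Without si-SRSF11 replicate 1, and with DESeq2, 6 genes of this list were called higher. OLFM4, a defining marker of the human crypt base, and HOPX had 0 counts in each library, which allows up to 0.206 CPM. Of 29 genes of differentiated intestinal cells only 10 were tested, with 1 called higher and 2 lower (median -0.20), a share near the 24.6% of all tested genes. Alkaline phosphatase ALPI rose by 0.47 (adjusted p = 4.6e-06 by edgeR), while carbonic anhydrase CA2 (-0.52, adjusted p = 3e-05) and the brush border protocadherin CDHR5 (-0.25, adjusted p = 0.0018) fell. Among the epithelial genes the intestinal transcription factor CDX2 rose by 0.40 (adjusted p = 0.00038) and CLDN7, a tight junction claudin, had a log2 fold change of -0.52 (adjusted p = 3.1e-07).

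The genes nearest to LGR5 in pattern were found by the root mean square difference of log2 CPM, centred on each gene's mean over the 6 libraries, among the 11019 protein-coding genes that averaged 2 or more in log2 CPM. The 5 nearest were APCDD1 (0.084), HSD3B1 (0.092), DRAXIN (0.107), MT1A (0.121) and INSIG1 (0.131). Their log2 fold changes were 1.02, 1.19, 1.07, 1.00 and 1.18, since a gene must differ by about as much as LGR5 to lie near it. APCDD1 is the Wnt inhibitor described above and DRAXIN a secreted axon guidance protein, while HSD3B1 is a steroid dehydrogenase, MT1A a metallothionein and INSIG1 a regulator of sterol synthesis. By the same measure NKD1 ranked 22 with 0.19, RNF43 50, EPHB2 131, AXIN2 158, LEF1 762, LGR4 1994 and ZNRF3 2896. ASCL2 and SMOC2 were too low to be ranked.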

How the data were processed

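The authors sequenced poly-A RNA of LoVo cells as paired-end reads and deposited 1 table of unnormalized read counts by gene and library. The submitters' notes name hg38, the gene coordinates equal those of GENCODE 29, and the aligner and counter are not given in the sources used here. Samples were grouped by the deposited labels. Genes reaching 10 counts in 3 or more libraries entered the fit, which used TMM factors and edgeR (version 4.0.16, R 4.3.3; glmQLFit and glmQLFTest, condition only), with Benjamini-Hochberg adjustment over all 15801 tested genes and calls at an adjusted p under 0.05. The SE came from the quasi-likelihood F statistic. The fit was tested on simulated data. Alternatives were DESeq2 (1.42.0), limma-voom (limma 3.58.1), other scalings and filters, the replicate block, and each library left out.

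The 10 genes and all lists were chosen with earlier results of these data known. Named were the 10, SRSF11, core pathway genes and R-spondins at any value, up to 4 called genes with the smallest adjusted p per list, the 5 nearest to LGR5, and overlapping genes. OLFM4, HOPX and marker genes named for being at 0, and COL1A1, EPCAM and the keratins, stand outside this rule, and 1 marker gene is not reported here. With 24 to 96 counts per library, LGR5 and ASCL2 in si-NC carry the largest counting error of the 9 tested genes.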

Additional observations from a re-analysis of the deposited data

How the results depend on the processing

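The 9 tested genes of the LGR5 set kept their direction under each of the 15 alternatives. SRSF11 ranged from -0.82 to -0.79 with single libraries left out. Requiring an absolute log2 fold change over 1 as well left 173 genes of the whole table, 2 of the LGR5 set, 1 inhibitor, and 0 in each of the other lists (ligands, receptors, cytoplasmic, nuclear, Wnt targets, crypt stem, differentiated). DESeq2 called 2729 genes in the whole table, 2 ligand genes and 1 inhibitor, and library size scaling 1 inhibitor. For these the cause was not tested beyond the stricter rule itself.

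With 1 library left out, calls ranged from 2733 to 3877 in the whole table, 6 to 8 in the LGR5 set, 2 to 4 among ligands, 1 to 3 among receptors, 1 to 2 among inhibitors, 3 to 5 in the cytoplasmic list, 2 to 5 in the nuclear list, 9 to 10 among Wnt targets, 6 to 8 among crypt stem genes and 3 to 4 among differentiated genes. WNT5B lost its call without si-NC replicate 2 or 3, without si-SRSF11 replicate 1 or 3, under library size scaling and with DESeq2. WNT4 lost it without si-NC replicate 1 or 3 or si-SRSF11 replicate 2, and LRP6 without the same libraries. DESeq2 gave no adjusted p for WNT4. PTK7 lost it without each library but si-SRSF11 replicate 3, under library size scaling and without the filter, and LGR6 without si-NC replicate 1 or 2 or si-SRSF11 replicate 1 or 3. With single libraries left out APC, not called, ranged from -0.0094 to 0.15 and was below 0 without si-NC replicate 1 or si-SRSF11 replicate 1. TNKS, not called, ranged from -0.13 to 0.014 and was above 0 without si-SRSF11 replicate 3.

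With the replicate block, 4036 genes were called in the whole table and 8 in the LGR5 set, and no list count moved by over 1.5 times. Deviations of libraries with the same replicate number correlated only weakly (r = 0.0053, 0.044 and 0.053), although each correlated best with its own. Counting noise in low genes also lowers such values, so whether the pairs shared a culture or batch cannot be told from them. Counts of 24 to 35 limit ASCL2 in si-NC, and SMOC2 and the R-spondins were not testable at this depth.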
